A study of Mus musculus with 4 samples.

Results

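Genes of glycolysis and of the response to low oxygen were examined in embryonic lung at E18.5, on Affymetrix arrays of *Hmga2*+/+ (WT) and *Hmga2*−/− (KO) mice. The list names 34 genes, of which 32 have at least 1 probe set that the platform's annotation ties to them and to no other symbol, among 19938 genes found in this way. *Gpi1* and *Eno1* had none and were not analysed here. A gene with several probe sets is represented by the brightest, by its mean over all arrays. By role, 17 of the 32 genes belong to glycolysis, 5 to oxygen sensing and 10 to the response to hypoxia.

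The WT group held 2 lungs labelled C57BL/6 WT and the KO group 2 lungs labelled C57BL/6 Hmga2 KO, dissected from embryos at that age; no treatment is named, and each sample had 1 array. The KO embryos derive from *Hmga2*+/− stock in which the deletion is constitutive and not limited to a cell type. *Hmga2* encodes a chromatin protein of undifferentiated tissue. Total RNA came from whole lung, which mixes epithelium, mesenchyme, vessels and blood. The titles of both WT samples read WT1, and only the replicate numbers tell them apart. The titles and the study's methods call the replicates biological, and neither says whether each was 1 embryo or a pool. All values are log2 values made by the authors with RMA, differences are KO minus WT, and tests are limma over all 19938 genes with adjustment by the method of Benjamini and Hochberg.

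Glycolysis splits glucose into pyruvate. Glucose enters through carriers, is trapped by hexokinase, is committed by phosphofructokinase and cleaved by aldolase, and the lower steps yield ATP before pyruvate goes to lactate or to the mitochondria. Oxygen acts on this pathway through hypoxia-inducible factors (HIF). Prolyl hydroxylases mark the HIF alpha subunits when oxygen is present, and the VHL protein then directs them to destruction. When oxygen is low the subunits persist, pair with ARNT, and bind a short core element near genes for glucose use, mitophagy, collagen hydroxylation and vessel growth. The fetal lung develops at low oxygen tension, where HIF2 alpha, the product of *Epas1*, is known from endothelium and from type II alveolar cells.

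The arrays set limits that hold for each result. The *Hmga2* probe set had 9.35 and 9.59 in WT against 9.65 and 9.39 in KO, and its difference was 0.051 (adjusted p = 0.892). Its position relative to the deletion is unknown here, and the KO group is named by its labels alone. Over all probe sets, WT replicate 1 stood apart (r between 0.976 and 0.985 with the others), while the other pairs lay between 0.992 and 0.997. Values are therefore also given without this array. Lung markers were high in all arrays, with a mean log2 value of 8 type II alveolar genes of 12.4 in both WT arrays and 11.5 in both KO arrays. An exact two-sided permutation test of 2 WT against 2 KO arrays cannot go below p = 0.333.

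Promoter sequences are shown first for 6 genes, since the members include many known HIF targets and the HIF response element has a 5-base core. The core was searched as ACGTG or GCGTG on either strand in windows from 250 bases before to 50 bases after the annotated transcript start (RefSeq, GRCm38.p6). Matches can overlap, and CACGTG holds ACGTG on both strands. Capitals mark the matches. The first 4 genes had lower values in the KO arrays, and the last 2 had higher ones.
Ankrd37, chr8:45999801-46000100, minus strand: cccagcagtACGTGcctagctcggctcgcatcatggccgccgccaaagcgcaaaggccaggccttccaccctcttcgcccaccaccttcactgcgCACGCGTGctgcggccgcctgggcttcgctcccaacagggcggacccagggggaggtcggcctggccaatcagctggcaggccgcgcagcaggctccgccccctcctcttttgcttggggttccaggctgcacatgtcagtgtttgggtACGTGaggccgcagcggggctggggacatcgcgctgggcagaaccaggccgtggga
Bnip3, chr7:138909457-138909756, minus strand: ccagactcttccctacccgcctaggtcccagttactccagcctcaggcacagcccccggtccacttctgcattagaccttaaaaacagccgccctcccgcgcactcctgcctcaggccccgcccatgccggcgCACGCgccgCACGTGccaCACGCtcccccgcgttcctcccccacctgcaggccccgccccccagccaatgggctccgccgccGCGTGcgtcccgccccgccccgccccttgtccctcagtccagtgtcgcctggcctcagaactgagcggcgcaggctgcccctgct
Adm, chr7:110627407-110627706, plus strand: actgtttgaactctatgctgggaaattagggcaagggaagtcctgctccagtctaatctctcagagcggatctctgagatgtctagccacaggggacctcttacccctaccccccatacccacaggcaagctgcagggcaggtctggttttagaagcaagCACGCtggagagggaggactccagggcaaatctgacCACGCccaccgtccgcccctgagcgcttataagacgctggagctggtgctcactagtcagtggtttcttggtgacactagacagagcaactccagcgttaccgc
Hk2, chr6:82774405-82774704, minus strand: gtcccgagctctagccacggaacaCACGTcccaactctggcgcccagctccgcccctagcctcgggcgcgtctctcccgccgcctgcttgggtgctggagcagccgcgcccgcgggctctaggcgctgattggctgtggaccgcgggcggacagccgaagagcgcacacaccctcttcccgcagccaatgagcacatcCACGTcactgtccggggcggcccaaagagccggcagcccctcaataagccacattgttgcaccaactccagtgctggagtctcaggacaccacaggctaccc
Pgam1, chr19:41911621-41911920, plus strand: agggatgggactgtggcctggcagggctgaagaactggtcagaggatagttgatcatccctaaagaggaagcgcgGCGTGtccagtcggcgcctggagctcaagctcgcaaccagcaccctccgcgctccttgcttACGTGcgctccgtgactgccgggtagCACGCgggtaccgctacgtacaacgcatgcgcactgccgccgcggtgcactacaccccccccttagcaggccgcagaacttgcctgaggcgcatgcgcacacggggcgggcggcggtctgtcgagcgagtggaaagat
Tpi1, chr6:124814109-124814408, minus strand: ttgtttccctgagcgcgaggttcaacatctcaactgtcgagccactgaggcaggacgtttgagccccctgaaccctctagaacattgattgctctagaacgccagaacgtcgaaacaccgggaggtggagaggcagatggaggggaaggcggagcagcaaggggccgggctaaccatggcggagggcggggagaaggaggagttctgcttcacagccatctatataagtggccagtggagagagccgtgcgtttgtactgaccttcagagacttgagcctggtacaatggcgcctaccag

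The window of *Ankrd37* held 4 matches, the nearest starting at base −6 from the transcript start, and that of *Bnip3* held 5. *Adm* and *Hk2* held 2 each, *Pgam1* held 3 and *Tpi1* held 0. Windows were found for 29 of the 32 genes, not for *Epas1*, *Ndrg1* and *Bnip3l*. At least 1 match was present for 26 of these 29 genes (89.7%), against 46.7% of 27025 genes in the table. By role it was present for 8 of 8 hypoxia response genes, 15 of 17 glycolysis genes and 3 of 4 oxygen sensing genes. Counted by window, 33 of 41 member windows (80.5%) and 43.8% of all 32851 windows held a match, and 58.5% against 20.6% held at least 2. Of the glycolysis genes whose KO arrays lay above both WT arrays, *Pgam1*, *Pgk1* and *Pkm* held a match while *Tpi1* and *Eno2* held none. *Hk2*, *Pfkfb3*, *Aldoa* and *Aldoc*, which lay below, each held at least 1. So did the glycolysis genes with overlapping groups, *Slc2a1*, *Hk1*, *Pfkl*, *Pfkp*, *Pfkm*, *Ldha*, *Slc16a3* and *Pdk1*. *Ldha*, with a difference of 0.021, held 7 in 1 window. Whether matches go with the direction of a difference was not tested. The shares of all genes and windows were not matched to the members for base content, expression or windows per gene. Since the members include many known HIF targets, their higher share is no finding of these arrays, and it was not tested. A match describes the letters and not the binding of a factor.

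**Figure D1:**
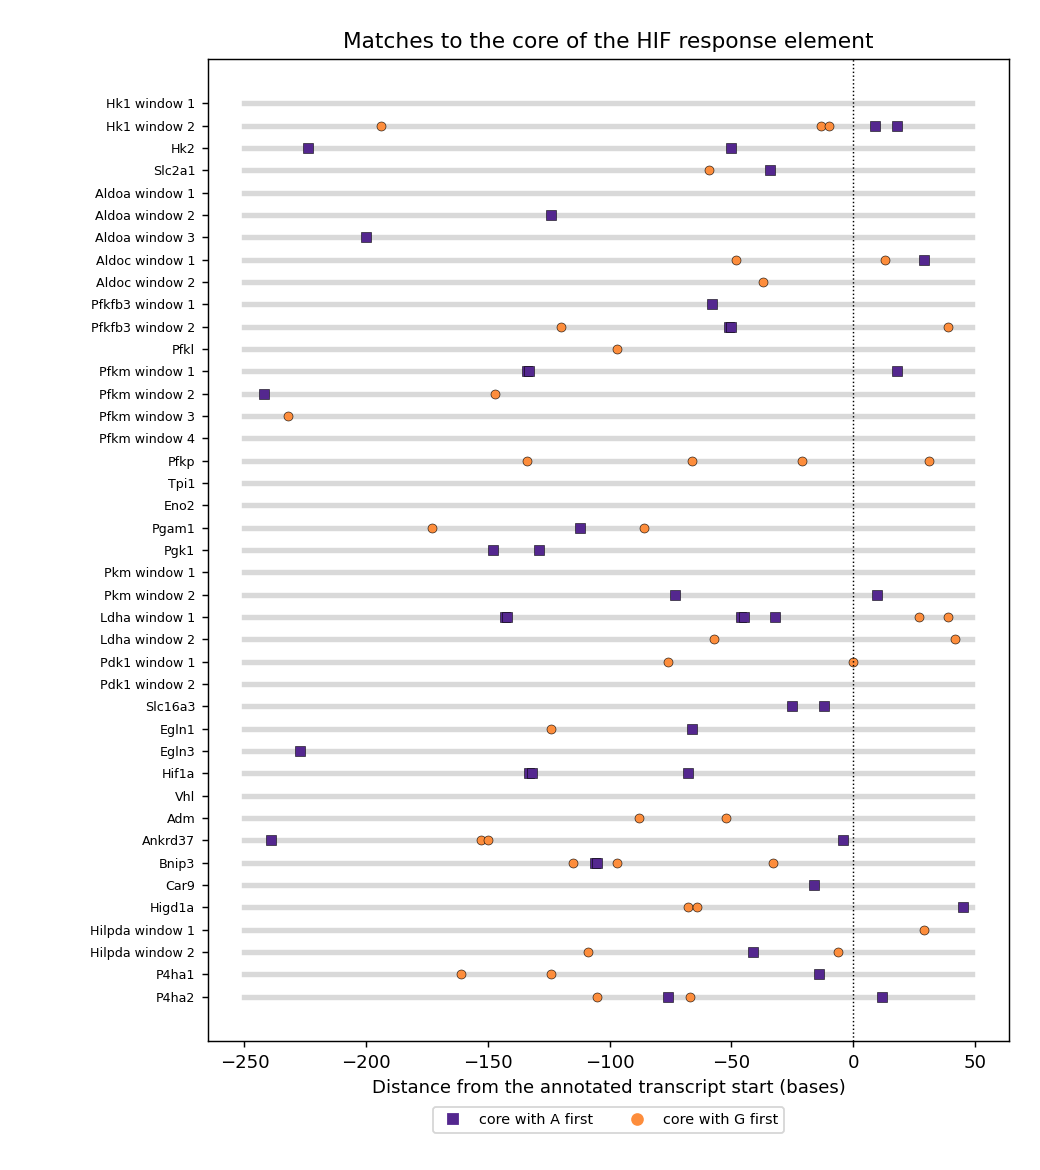
Each row is a promoter window of a member gene (grey line, 250 bases before to 50 after the annotated transcript start at 0), and the symbols mark matches to the 5-base core with A first (squares) or G first (circles) on either strand. Of 41 windows 33 hold a match, among them at least 1 window of each of the 8 hypoxia response genes shown, and *Tpi1*, *Eno2* and *Vhl* hold none.

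Across the 32 genes, the KO arrays lay below both WT arrays for 7 of 10 hypoxia response, 3 of 5 oxygen sensing and 4 of 17 glycolysis genes, and above them for 0, 1 and 5, with no test between the roles. None reached an adjusted p under 0.05 in limma (0 higher and 0 lower), where 0.0802% of all genes were called higher and 0.702% lower. Without adjustment, at p under 0.05, 7 of the 32 genes were lower and 0 higher, against 8.58% and 5.88% of all genes. These 7 were *Ankrd37*, *Bnip3*, *Epas1*, *Adm*, *Aldoc*, *Hk2* and *Ndrg1*. Both KO arrays lay below both WT arrays for 14 genes and above them for 6, where 31.8% of all genes lay below and 17.6% above. These shares, and those at an unadjusted p under 0.05, are the background for the counts from all 4 arrays given further below. Past a 1.2-fold change, with no test, 10 genes were lower and 4 higher, against 17.1% and 13.4% of all genes. The median difference was −0.34 for hypoxia response, −0.15 for oxygen sensing and 0.021 for glycolysis, beside −0.051 for all genes. Without WT replicate 1 these medians were −0.45, −0.23 and −0.054 beside −0.058 for all genes, 22 of the 32 genes lay below the single WT array left and 6 above it (9591 and 4795 of all 19938 genes), and 0 were past 1.2-fold upward.

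**Figure D2:**
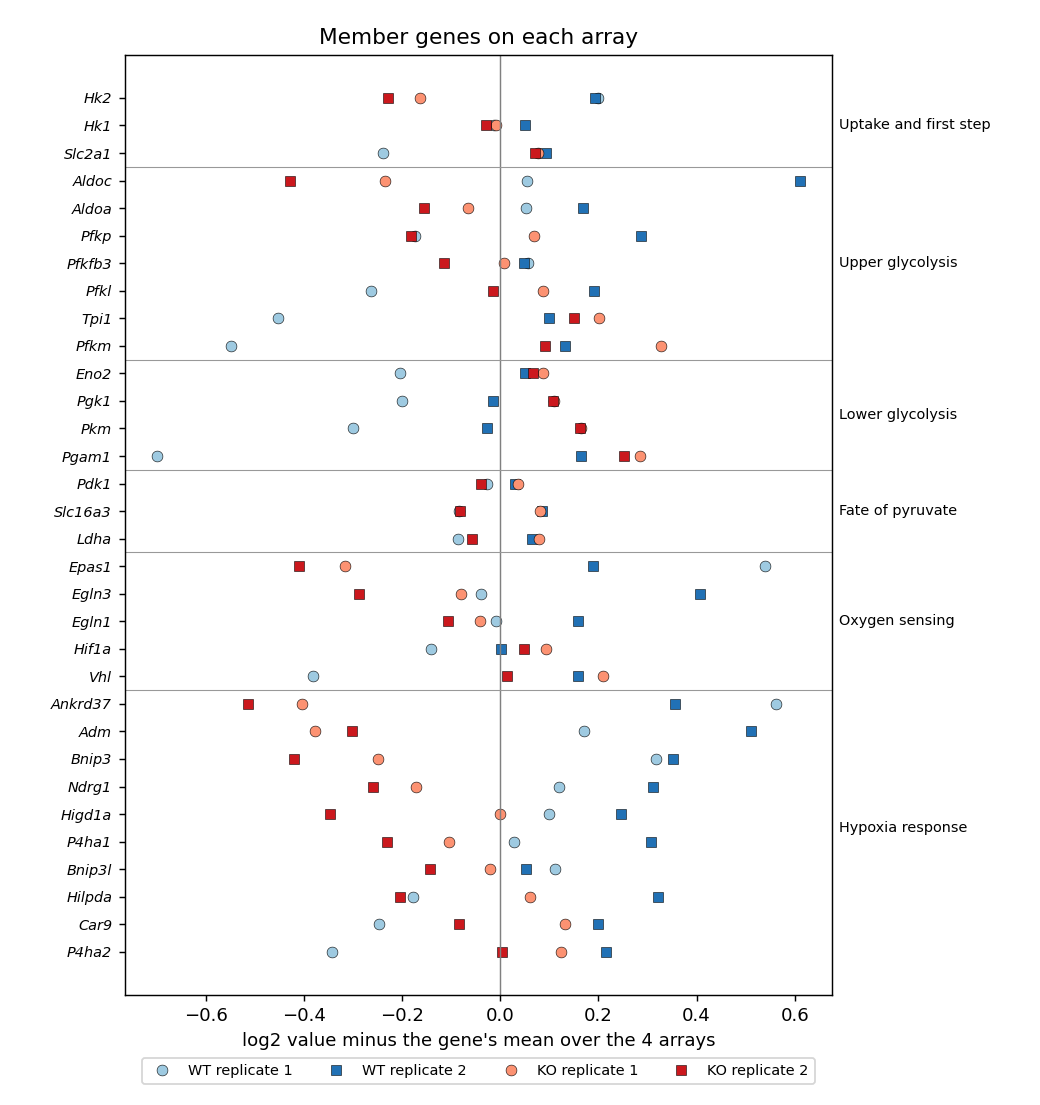
Each symbol is 1 array's log2 value of a gene minus that gene's mean over the 4 arrays, with genes grouped by role and ordered by their difference. In the hypoxia response both KO arrays lie to the left of both WT arrays for 7 of 10 genes. In lower glycolysis WT replicate 1 is the leftmost array for all 4 genes, with the widest gap to the others for *Pgam1*.

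Among the hypoxia response genes, 8 of 10 had a lower mean in the KO arrays, where 11732 of all 19938 genes did. For 7 of the 10 the groups did not overlap. Epithelial markers had lower values in the KO arrays as well. All 5 type I alveolar markers lay lower without overlap, with a median of −0.85, and 2 passed limma's test, *Aqp5* (−2.20, adjusted p = 0.0034) and *Rtkn2* (−2.49, adjusted p = 0.0121). Of 4 airway markers 3 lay lower, with a median of −0.39, and *Scgb1a1* (−2.69, adjusted p = 0.0028) passed. The mean log2 value of the type I list was 11.50 and 11.46 in WT against 10.25 and 10.13 in KO, that of the airway list was 11.26 and 11.38 against 10.52 and 10.41, and their part in the hypoxia response values was not tested. The gene with the largest difference was *Ankrd37*, a HIF target that encodes an ankyrin repeat protein. It had 8.93 and 8.73 in WT against 7.97 and 7.86 in KO. The KO arrays thus lay below both WT arrays by more than either group spread. Its difference was −0.92 (standard error, SE, 0.14; adjusted p = 0.0533), a 1.89-fold lower level that narrowly missed the threshold and ranked 168th among all genes by p. It passed with the replicate number as a block (adjusted p = 0.0211) but not with centred arrays (0.0551), averaged probe sets (0.0544) or trend and robust (0.0541), nor without KO replicate 1 (0.629) or KO replicate 2 (0.936). With 1 array left out the difference ran from −1.02 to −0.81.

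*Bnip3* encodes an outer membrane protein of mitochondria that marks them for mitophagy. Its values were 11.04 and 11.07 in WT against 10.47 and 10.30 in KO, which is −0.67 (SE 0.13, adjusted p = 0.0925). The WT arrays were almost equal and both KO arrays lay clearly below. A dimmer probe set of *Bnip3* gave −0.82 (SE 0.13). The related *Bnip3l*, which acts in mitophagy too and clears mitochondria from maturing red cells, had −0.16 (SE 0.13, adjusted p = 0.570) and −0.15 in its 2 probe sets, also without overlap. Of 9 listed erythroid markers 5 were measured, and 4 of these lay lower without overlap, where 31.8% of all genes did. Their median was −0.12. *Alas2*, an enzyme of heme synthesis, had −0.66 and *Slc4a1* −0.10. *Rhag*, *Klf1* and *Epb42* were dim, with WT means of 5.70, 6.44 and 6.42, below each array's median. The mean log2 value of the 5 markers was 7.91 in both WT arrays and 7.73 and 7.65 in KO, and their part in these differences was not tested. In whole lung, fewer cells of a type and less RNA per cell cannot be told apart.

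*Adm* encodes the vasodilator peptide adrenomedullin. It had 8.10 and 8.44 in WT against 7.55 and 7.63 in KO, with a difference of −0.68 (SE 0.16, adjusted p = 0.130). *Ndrg1*, a gene induced by hypoxia and differentiation, had 10.96 and 11.15 in WT against 10.67 and 10.58 in KO, which is −0.43 (SE 0.14, adjusted p = 0.228). In both genes the groups did not overlap and WT replicate 2 was the highest array. *Higd1a*, a mitochondrial inner membrane protein induced by hypoxia, had 7.86 and 8.01 in WT against 7.76 and 7.42 in KO. Its difference was −0.35 (SE 0.16, adjusted p = 0.390), and KO replicate 1 lay only just below WT replicate 1.

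Of the other genes of this role, *Hilpda*, *Car9* and *P4ha2* had overlapping groups. *Hilpda*, an inhibitor of lipid droplet breakdown, had −0.14 (95% interval −0.63 to 0.34). The carbonic anhydrase gene *Car9*, a classical HIF target, had 0.048 (95% interval −0.40 to 0.49). *Car9* was dim, with a WT mean of 6.98, below each array's median. *P4ha1* and *P4ha2*, which encode alpha subunits of the collagen prolyl 4-hydroxylase, differed in sign. *P4ha1* had 10.63 and 10.91 in WT against 10.50 and 10.38 in KO, which is −0.34 (SE 0.15, adjusted p = 0.378) with no overlap. *P4ha2* overlapped, with 0.13 (95% interval −0.36 to 0.61), and whether the subunits differ from each other was not tested. Without WT replicate 1, all 10 genes of this role were below WT replicate 2, with *Car9* at −0.18 and *P4ha2* at −0.15, where 9591 of all 19938 genes lay below as well. Against WT replicate 1 alone, the median of the role was −0.23 in place of −0.34.

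**Figure D3:**
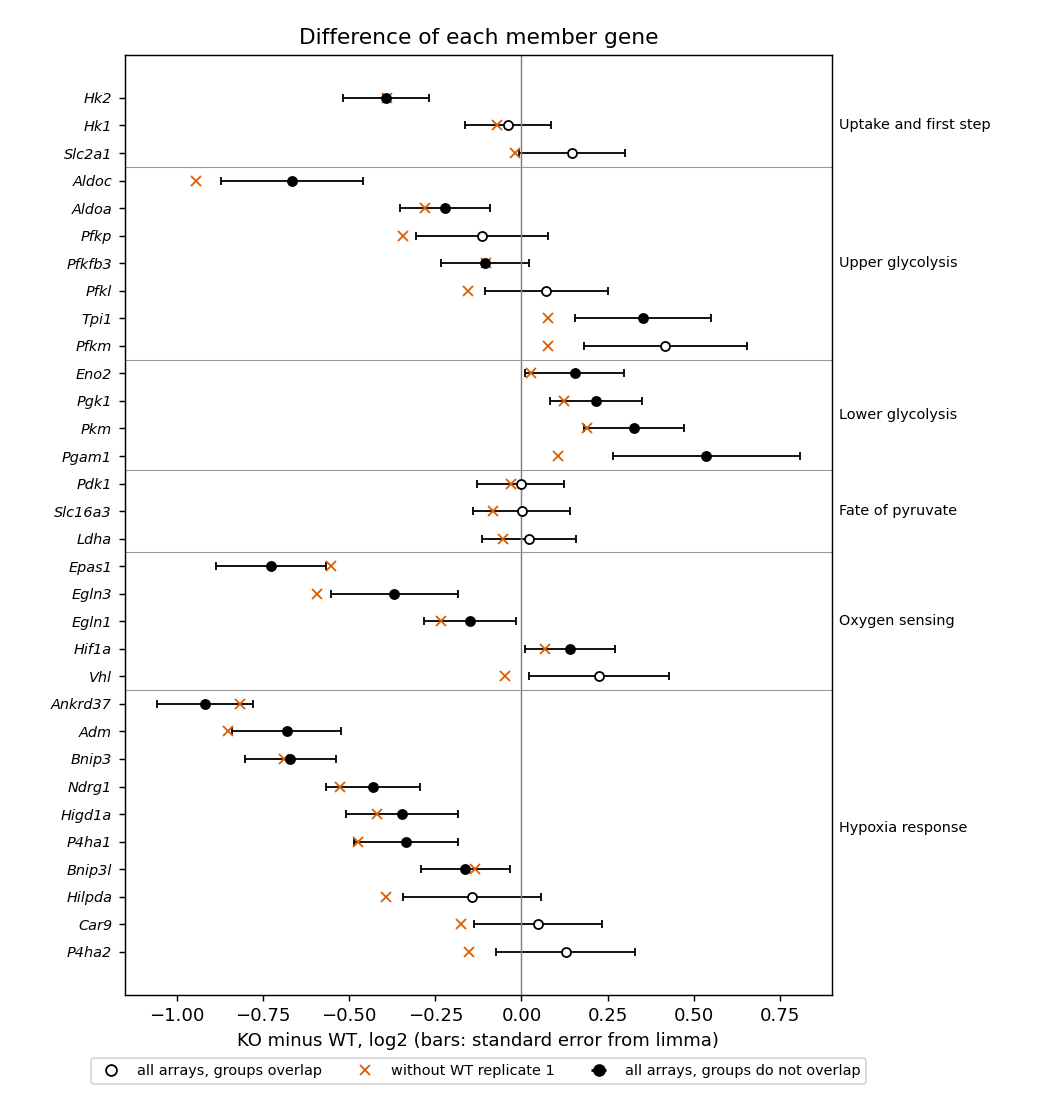
Circles give the KO minus WT difference of each gene on the log2 scale with its standard error from limma (filled where the groups do not overlap), and crosses give the difference without WT replicate 1. *Ankrd37* has the lowest value (−0.92) and *Pgam1* the highest (0.54), and the crosses of *Pgam1*, *Tpi1* and *Pfkm* move close to 0 while those of *Bnip3* and *Hk2* stay at −0.69 and −0.39.

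In oxygen sensing, the HIF alpha genes differed in sign. *Epas1* had 11.61 and 11.25 in WT against 10.75 and 10.66 in KO, so both KO arrays lay below. The difference was −0.73 (SE 0.16, adjusted p = 0.116), or 1.65-fold lower. *Hif1a*, which encodes the alpha subunit found in most cells, had 11.31 and 11.46 in WT against 11.55 and 11.50 in KO. Both KO arrays lay above, by a small margin, with a difference of 0.14 (95% interval −0.17 to 0.45). Whether the difference of *Epas1* departs from that of *Hif1a* was not tested.

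Markers of the cells known to express *Epas1* were set beside it. Of 7 endothelial markers, 5 lay lower without overlap, with a median of −0.27 and *Cldn5* (−0.72, adjusted p = 0.0873) at the low end, while *Tek* had 0.0074, and 0 passed limma's test. Their mean log2 value was 11.87 and 11.97 in WT against 11.65 and 11.59 in KO. Of 8 type II alveolar markers, 7 lay lower without overlap with a median of −0.70, and 3 passed limma's test, with *Sftpd* at −3.07 (adjusted p = 0.0074), while *Sftpc* had −0.096 and *Nkx2-1* lay above with 0.11. The part of these cells in the difference of *Epas1* was not tested.

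*Egln3*, a prolyl hydroxylase that HIF itself induces, had 10.75 and 11.19 in WT against 10.70 and 10.50 in KO. The groups did not overlap, although WT replicate 1 lay close to KO replicate 1, and the difference was −0.37 (SE 0.18, adjusted p = 0.413). Leaving out WT replicate 1 gave −0.59 and leaving out WT replicate 2 gave −0.14. *Egln1*, the main oxygen sensor among the hydroxylases, had −0.15 (95% interval −0.47 to 0.17), also with no overlap. *Vhl* had 9.38 and 9.92 in WT against 9.97 and 9.78 in KO. Here WT replicate 1 alone was low, and the difference of 0.22 (95% interval −0.26 to 0.71) became −0.047 without it.

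In glycolysis, *Hk2* alone among the 3 genes of uptake and the first step lay lower without overlap. *Slc2a1*, the carrier GLUT1, had 11.43 and 11.76 in WT against 11.75 and 11.74 in KO. WT replicate 1 was lower than the other arrays, which were nearly equal, with a difference of 0.15 (95% interval −0.23 to 0.52). *Hk2*, the hexokinase that insulin and hypoxia induce, had 9.15 and 9.15 in WT against 8.79 and 8.73 in KO. The arrays of each group agreed closely, and the difference was −0.39 (SE 0.12, adjusted p = 0.228), with a range of −0.43 to −0.36 when 1 array was left out. *Hk1*, the hexokinase of most tissues, was −0.038 in its brighter probe set, but the annotation of that probe set rests on 1 accession that also stands on 16 probe sets listed with *Rpl17*, a ribosomal protein gene. The other *Hk1* probe set, which lists RefSeq transcripts, had 9.72 and 9.84 in WT against 9.85 and 9.77 in KO, which is 0.032 (SE 0.13).

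The phosphofructokinase and aldolase families differed within themselves. *Pfkm*, the muscle isoform, had 0.42 (95% interval −0.15 to 0.98), *Pfkl*, the liver isoform, 0.072 (95% interval −0.36 to 0.50) and *Pfkp*, the platelet isoform, −0.11 (95% interval −0.57 to 0.35), all with overlapping groups. *Pfkm* was 0.077 without WT replicate 1. Of 10 markers of heart and skeletal muscle, 7 were higher in the KO arrays without overlap, with a median of 0.60, and *Nppa* (1.78, adjusted p = 0.0172) passed limma's test. The mean log2 value of these markers was 9.29 and 9.16 in WT against 9.90 and 9.72 in KO, and their part in *Pfkm* was not tested. *Pfkfb3*, which makes the activator of phosphofructokinase, had −0.11 (95% interval −0.41 to 0.20).

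*Aldoc*, an aldolase isoform known from brain and from hypoxic cells, had 9.34 and 9.89 in WT against 9.05 and 8.86 in KO. Both KO arrays lay below both WT arrays, which themselves lay apart, and the difference was −0.66 (SE 0.21, adjusted p = 0.219). Leaving out WT replicate 1 gave −0.94, and leaving out WT replicate 2 gave −0.39. *Aldoa*, the main aldolase of muscle and of fetal tissue, had −0.22 (SE 0.13, adjusted p = 0.465) with no overlap. Differences between the isoforms were not tested.

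From triose phosphate isomerase downward, values were higher in the KO arrays. *Pgam1*, phosphoglycerate mutase, had 11.31 and 12.17 in WT against 12.30 and 12.26 in KO. Its difference of 0.54 (SE 0.27, adjusted p = 0.416) was 0.10 without WT replicate 1, which alone was low. *Pkm*, pyruvate kinase, had 11.03 and 11.30 in WT against 11.49 and 11.49 in KO, which is 0.33 (SE 0.15, adjusted p = 0.374) and of 0.19 without WT replicate 1. *Tpi1* had 0.35 (SE 0.20), *Pgk1*, phosphoglycerate kinase, 0.22 (SE 0.13) and *Eno2*, the neuronal enolase, 0.15 (SE 0.14). These 5 genes, all of them without overlap, lay between 0.026 and 0.19 without WT replicate 1. *Eno2* was dim, with a WT mean of 7.13, below each array's median. *Pgam1* had 3 probe sets and *Pgk1* had 3, and 2 of each held identical values, and since both genes have near-identical copies in the genome their levels are uncertain.

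The markers of dividing cells followed the same order of arrays. All 9 measured ones had higher values in the KO arrays without overlap, with a median of 0.94, although 0 passed limma over all genes (9 did without adjustment, at p under 0.05). Their mean log2 value was 9.62 and 10.30 in WT against 10.99 and 10.87 in KO, and WT replicate 1 was lowest, its median deviation from the genes' means being −0.80 against −0.14 in WT replicate 2. For the 4 genes of lower glycolysis these deviations were −0.25 and 0.018. The part of dividing cells in the lower glycolysis values was not tested.

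The fate of pyruvate showed no difference that these arrays could resolve. *Ldha*, lactate dehydrogenase A, had 0.021 (95% interval −0.31 to 0.35), *Slc16a3*, the lactate exporter MCT4, 0.00021 (95% interval −0.34 to 0.34) and *Pdk1*, which blocks pyruvate dehydrogenase, −0.0027 (95% interval −0.31 to 0.30). All 3 are well-known HIF targets, and their groups overlapped.

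Other genes of these pathways were compared to place the members. Of 41 other measured hypoxia response genes, 30 had a lower and 11 a higher mean in the KO arrays. Over all 19938 genes these counts were 11732 and 8206. The median of the 41 genes was −0.16 (−0.26 without WT replicate 1, 0.010 without WT replicate 2). Both KO arrays lay below both WT arrays for 16 and above for 5, beside 31.8% and 17.6% of all genes, and 0 passed limma's test. An unadjusted p under 0.05 was found for 10 lower and 2 higher genes, beside 8.58% and 5.88% of all genes. *Vegfa*, the vascular growth factor, had 12.21 and 11.84 in WT against 11.19 and 11.16 in KO, which is −0.85 (SE 0.16, adjusted p = 0.0849). *Nos2*, an inducible nitric oxide synthase, had −0.79 (adjusted p = 0.0753) and *Selenbp1*, a selenium-binding protein, −0.61 (adjusted p = 0.111). For all 3 the groups did not overlap. *Nos2* is known from activated macrophages, and all 6 macrophage and monocyte markers lay lower without overlap, with a median of −0.39 and a mean log2 value of 9.42 and 9.62 in WT against 8.98 and 8.90 in KO. Of the macrophage and monocyte markers only *Lyz2* (−1.76, adjusted p = 0.0080) passed limma's test. Of 6 neutrophil markers 5 lay lower without overlap, with a median of −0.28. Their mean log2 value was 7.15 and 7.17 in WT, below each array's median. The part of these cells was not tested.

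Partners and regulators of HIF went both ways, 11 of 18 with a higher and 7 with a lower mean and a median of 0.075. Over all 19938 genes, 8206 had a higher and 11732 a lower mean. *Arnt2*, a partner of HIF alpha subunits in neural and other embryonic tissue, had 8.21 and 8.81 in WT against 9.69 and 9.60 in KO, which is 1.14 (SE 0.21, adjusted p = 0.0825). *Cited2*, a HIF-induced protein that competes with HIF for its coactivators, had −0.38 (adjusted p = 0.302), and the chaperone *Hsp90aa1* had 0.39 (adjusted p = 0.342). *Arnt* itself had 0.022.

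The list of other collagen hydroxylases, which also holds the associated genes *Crtap* and *P4hb*, lay mostly above, in contrast to the sign of *P4ha1*. Of 9 measured genes, 8 had a higher mean in the KO arrays, where 8206 of all 19938 genes did. Without overlap 7 lay above, among them *Crtap* (0.50) and *P4hb* (0.12), where 17.6% of all genes lay above. The median of the 9 genes, 0.39, became 0.089 without WT replicate 1. *P4ha3*, another alpha subunit of prolyl 4-hydroxylase, had 8.97 and 10.50 in WT against 11.17 and 10.97 in KO, which is 1.33 (SE 0.45, adjusted p = 0.254) and 0.57 when WT replicate 1 is left out. The prolyl 3-hydroxylases *P3h2* (0.48, adjusted p = 0.228) and *P3h3* (0.44, adjusted p = 0.325) were higher as well. Whether the difference of *P4ha1* departs from these was not tested.

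In the pathways around glycolysis, medians lay between −0.12 and 0.051. They were −0.12 over 20 other glycolytic enzymes and carriers, 0.030 over 8 genes of gluconeogenesis, −0.029 over 17 of glycogen metabolism, −0.091 over 9 of the pentose phosphate pathway and 0.051 over 11 of pyruvate entry into mitochondria. In none of them did a gene pass limma's test. At p under 0.05 without adjustment were 3 higher and 4 lower genes of the first list, and 0 higher and at most 2 lower genes in each of the others. Over all genes, 5.88% were higher and 8.58% lower in this way. The regulators of phosphofructokinase *Pfkfb4* (−0.52, adjusted p = 0.15) and *Pfkfb2* (−0.66, adjusted p = 0.160) were lower without overlap, as was the monocarboxylate carrier *Slc16a7* (−0.50, adjusted p = 0.220). *Pcx*, pyruvate carboxylase, which feeds gluconeogenesis and lipid synthesis, had 10.46 and 10.41 in WT against 9.62 and 9.65 in KO, which is −0.80 (SE 0.12, adjusted p = 0.0573). *Pdk4*, a kinase that blocks pyruvate dehydrogenase in fasting, had −0.71 (adjusted p = 0.110), and *Mpc1*, a subunit of the mitochondrial pyruvate carrier, −0.36 (adjusted p = 0.329).

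Other genes of these lists went both ways. *Pdk3* had 0.41, *G6pc3* 0.50 and *G6pc* −0.26. *G6pc* was dim, with a WT mean of 5.73, below each array's median. In glycogen metabolism, *Gbe1*, the branching enzyme, had −0.32, *Phka2* −0.33 and *Pygl* −0.25. In the pentose phosphate pathway, *H6pd* had −0.33, *Tkt* 0.28 and *Pgls* 0.26. *G6pc3* and *Pdk3* rest on WT replicate 1, which lay at 8.95 and 9.96 where the other arrays were between 9.83 and 9.93 for *G6pc3* and between 10.52 and 10.73 for *Pdk3*.

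**Figure D4:**
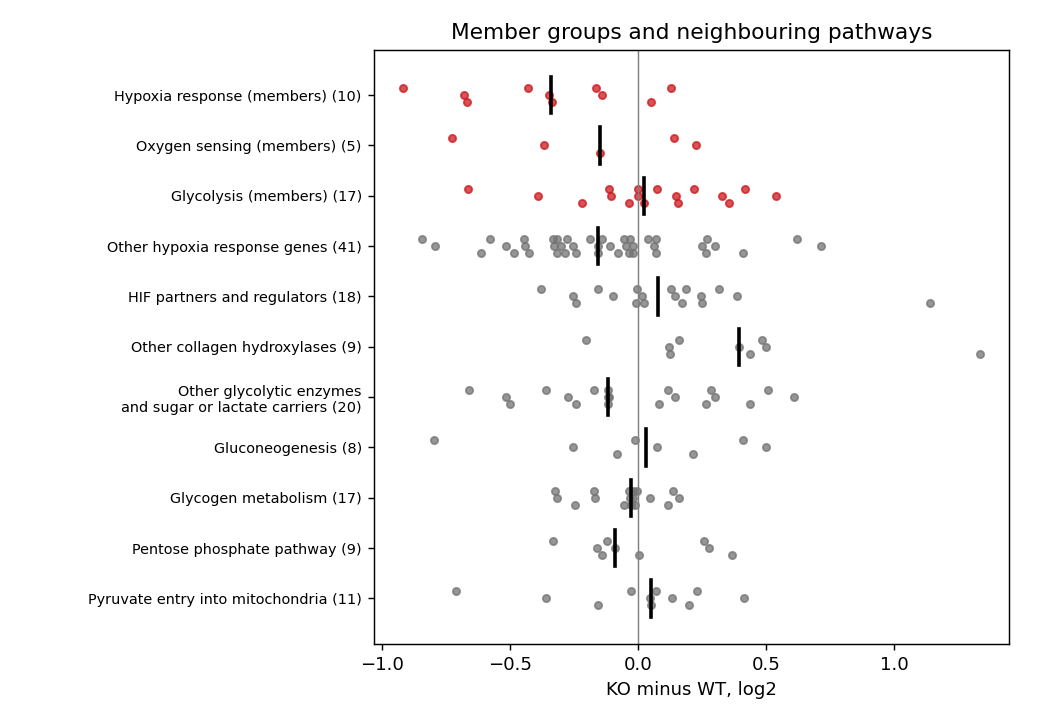
Each point is a gene's KO minus WT difference on the log2 scale, for the member groups (red) and the other lists (grey), with the number of measured genes in parentheses and a black bar at the median. Among the pathway lists drawn, the hypoxia response members have the lowest median (−0.34) and the other collagen hydroxylases the highest (0.39); *Pfkfb4*, *Slc2a3*, *Gys1* and *Gbe1* appear in 2 lists.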

How the data were processed

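Gene expression was measured in 2 WT and 2 KO lungs at E18.5. For 30177 probe sets the authors deposited log2 values. The submitters' processing notes name RMA and Affymetrix Expression Console, with no version. RMA corrects background, quantile-normalizes arrays and summarises probes, and it gives no call of signal over background. Precision is limited by the number of arrays. Symbols came from the platform's annotation (21789 with 1 symbol, 1621 with several, 6767 unnamed here), and 19856 of 19938 genes matched RefSeq (GRCm38.p6) by Entrez ID.

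Groups were taken from the labels. Genes were compared by linear models in limma 3.58.1 under R 4.3.3 (moderated variances with no trend, prior degrees of freedom 4.42 and residual degrees of freedom 2), adjusted over all genes at a threshold of 0.05. Each p value weighs a difference against the spread between these samples, moderated by that of all genes. The titles and the study's methods call the replicates biological without naming embryos or litters, so whether this spread is variation between embryos is unknown. The code was tested on simulated data. Plots used Python 3.11.15 and matplotlib 3.10.9.

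The members and lists were chosen with earlier results of these data known. All members are named with their differences. Values of all arrays are given for the 12 members with the smallest p, for *Slc2a1*, *Hif1a*, *Epas1* and *Vhl*, and families are set side by side. Lists of cell markers are given by their medians, with genes named for some of them only. The lists of 6 mesenchyme and 4 smooth muscle markers, not described above, had medians of 0.095 and 0.14. In each other pathway list up to 3 genes with the smallest p are named. Which of those have all arrays printed, *Arnt*, *Tek*, *Sftpc*, *Nkx2-1*, the second probe sets and the 6 promoters, taken from members with 1 window, were picked once values were known. *Ero1l* was matched as *Ero1a*.

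Other settings tried were a block for the replicate number, arrays centred on their medians, cyclic loess, genes above the dimmest 40 percent, averaged probe sets, eBayes with trend and robust, and each array left out in turn. A crossed pairing and the brightest probe set with a RefSeq mRNA accession were added after the values were seen.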

Additional observations from a re-analysis of the deposited data

How the results depend on the processing

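With 1 array left out, its group keeps a lone array that is assumed to vary like the other group, so counts of calls there hold no variation within that group. With either WT array left out, limma gave every member the same standard error, 0.155. Members called there were picked by the size of the difference alone, with no spread of their own. Groups also separate more easily from a lone array. Without WT replicate 1, 9591 of all 19938 genes lay below and 4795 above. Such counts over all genes were not made for the other arrays left out, nor counts past 1.2-fold. Over these 4 settings, 0 to 6 members passed as higher and 0 to 8 as lower, 6 to 14 lay above and 14 to 22 below without overlap, 0 to 11 were past 1.2-fold higher, and 0 to 3321 of all genes passed as higher and 0 to 2971 as lower. The 8 members lower without WT replicate 1 were *Aldoc*, *Epas1*, *Egln3*, *Bnip3*, *Ankrd37*, *Ndrg1*, *Adm* and *P4ha1*. Without WT replicate 2, 6 were lower (*Hk2*, *Aldoc*, *Epas1*, *Bnip3*, *Ankrd37*, *Adm*) and 6 higher (*Pfkm*, *Tpi1*, *Pgam1*, *Pkm*, *Vhl*, *P4ha2*). Without KO replicate 1 or 2, 0 members passed limma, with 4 lower at an unadjusted p under 0.05 in each. With the replicate block 1 member (*Ankrd37*) passed as lower, and so it did when the dimmest 40 percent were dropped (30 members left) and with probe sets that list a RefSeq mRNA, and with cyclic loess 2 did (*Ankrd37* and *Bnip3*). Of all genes, 16 higher and 140 lower became 241 and 361 with the replicate block, 80 and 270 with cyclic loess, 74 and 227 without the dimmest genes, 38 and 214 with RefSeq probe sets, and 27 and 25 higher with centred arrays and with trend and robust. Same-numbered arrays deviated in opposite directions (r = −0.238 over genes), and the crossed pairing called 207 higher and 305 lower genes and 1 member. The cause of these changes was not tested.

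Directions turned only for small differences. With 1 array left out, these ran from −0.18 to 0.27 for *Car9*, −0.39 to 0.11 for *Hilpda*, −0.054 to 0.097 for *Ldha*, −0.15 to 0.41 for *P4ha2*, −0.040 to 0.034 for *Pdk1*, −0.16 to 0.30 for *Pfkl*, −0.34 to 0.12 for *Pfkp*, −0.084 to 0.084 for *Slc16a3*, −0.020 to 0.31 for *Slc2a1* and −0.047 to 0.49 for *Vhl*. *Hk1* was 0.032 in its RefSeq probe set and 0.0026 with centred arrays, where *Pdk1* was 0.038, and *Ldha* and *Slc16a3* were −0.0098 and −0.051 with cyclic loess. No other member turned under any setting run. The median differences of the 3 roles moved by less than the spread between replicates.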
